A study of Homo sapiens with 12 samples.

Results

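The chemokine transcripts of HCC1806 cells, a triple-negative breast cancer (TNBC) line, were examined in 9 genes of the 17013 genes measured by mRNA sequencing. The genes were taken by symbol. They comprised the 6 measured CXC chemokine genes of the chromosome 4 cluster that carry the ELR motif (CXCL1, CXCL2, CXCL3, CXCL5, CXCL6 and CXCL8) and 3 other chemokine genes that epithelial cells can express (CXCL10, CXCL16 and CCL20). All 9 had values. The lowest maximum over group means among all genes was 10.7 normalized reads, and CXCL10 reached this level only in the doxorubicin groups, so that its drug responses bear on a gene kept through them. The study asked how MLK4, a mixed-lineage kinase encoded by MAP3K21, shapes the response of TNBC cells to chemotherapy. Cells were transfected with the non-targeting siRNA siNT or with siMLK4, a pool of 4 siRNAs to MLK4, and after 24 h they were given vehicle or 1 μM doxorubicin, an anthracycline that damages DNA, for a further 24 h. The 4 groups (siNT vehicle, siNT doxorubicin, siMLK4 vehicle and siMLK4 doxorubicin) had 3 libraries each. Reads counted over the 17013 genes numbered 16759025 to 19302248 per library. The labels name DMSO as the vehicle, the sample titles mark these samples as time 0, and the study's methods call them untreated. Whether they were harvested together with the drug samples is not given in the labels. If they were not, the drug responses below also include a difference in time of culture. All groups are transfected cultures of 1 cell line, and the controls carry an siRNA too.

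Chemokines are small secreted proteins that guide leukocytes through G protein-coupled receptors. The ELR (glutamate-leucine-arginine) CXC chemokines bind CXCR2, and CXCL8 and CXCL6 also bind CXCR1. They attract neutrophils and promote the growth of blood vessels, and their genes are classical targets of NF-κB and AP-1 in epithelial cells. CXCL10 lacks the ELR motif, is induced by interferons and attracts T cells and natural killer cells through CXCR3. CXCL16 is made as a membrane-anchored ligand of CXCR6 that ADAM10 can shed, and CCL20 attracts CCR6-bearing dendritic cells and T cells.

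The stretches before the transcription starts of the ELR genes are shown because the 6 genes lie in 1 cluster and carry the same short NF-κB-type sequence. Entries of the RefSeq promoter table (GRCh38.p14) were found for 8 of the 9 genes, with CXCL16 the exception. The sequences below run 5′ to 3′ and end at the last base before the RefSeq start. They hold 120 bases, with longer stretches for CXCL8 and CXCL10, and capitals mark matches to any of the motifs named below.
CXCL1, chr4:73869273-73869392, + strand: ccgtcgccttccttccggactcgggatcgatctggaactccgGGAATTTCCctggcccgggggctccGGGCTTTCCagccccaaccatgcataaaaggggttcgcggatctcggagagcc
CXCL2, chr4:74099196-74099315, − strand: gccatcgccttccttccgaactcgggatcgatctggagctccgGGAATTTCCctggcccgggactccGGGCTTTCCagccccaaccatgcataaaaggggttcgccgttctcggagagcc
CXCL3, chr4:74038690-74038809, − strand: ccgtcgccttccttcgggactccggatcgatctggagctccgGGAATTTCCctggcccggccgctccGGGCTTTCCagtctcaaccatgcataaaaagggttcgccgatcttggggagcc
CXCL5, chr4:73998678-73998797, − strand: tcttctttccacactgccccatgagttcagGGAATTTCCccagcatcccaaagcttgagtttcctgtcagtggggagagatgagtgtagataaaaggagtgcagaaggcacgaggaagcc
CXCL6, chr4:73836558-73836677, + strand: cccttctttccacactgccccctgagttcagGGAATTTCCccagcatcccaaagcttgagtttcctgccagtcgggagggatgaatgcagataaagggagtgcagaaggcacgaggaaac
CXCL8, chr4:73740429-73740568, + strand: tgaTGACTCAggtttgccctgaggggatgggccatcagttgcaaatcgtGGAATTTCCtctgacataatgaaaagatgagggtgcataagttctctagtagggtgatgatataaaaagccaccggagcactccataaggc
CXCL10, chr4:76023498-76023722, − strand: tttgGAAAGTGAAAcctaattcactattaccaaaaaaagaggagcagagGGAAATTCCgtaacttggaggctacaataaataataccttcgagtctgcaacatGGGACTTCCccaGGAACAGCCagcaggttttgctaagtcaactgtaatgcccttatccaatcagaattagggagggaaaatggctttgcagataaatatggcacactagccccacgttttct
CCL20, chr2:227813722-227813841, + strand: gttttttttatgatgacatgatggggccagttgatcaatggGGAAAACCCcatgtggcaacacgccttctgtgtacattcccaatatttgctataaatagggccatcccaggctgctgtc

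The 9 letters GGAATTTCC, sought on both strands, stood in the 250 bases before the start of 7 of the 8 genes, all 6 ELR genes and, as its reverse complement, CXCL10, but not of CCL20. They occur in 0.428% of the 27305 promoters of the table. The match began 77 to 78 bases before the start in CXCL1, CXCL2 and CXCL3, 89 to 91 bases before it in CXCL5, CXCL6 and CXCL8, and 176 bases before it in CXCL10. The looser GGNNNTTCC, which contains the former, matched all 8 genes and 17.1% of all promoters, and CXCL1, CXCL2 and CXCL3 held it at 2 places and CXCL10 at 3. Among the ELR genes the AP-1 letters TGANTCA matched only CXCL8, 137 bases before its start (6.60% of all promoters), and the C/EBP letters TTGCNNAA matched only CXCL2 (9.13% of all promoters), outside the printed stretch. The interferon-type letters, GAAA followed after 2 further bases by GAAA, matched only CXCL10 of the 8 genes, 221 bases before its start (3.07% of all promoters). The motifs were chosen after the promoters had been read, and a match describes the letters and not a bound site. In the 69 bases around the shared 9 letters, CXCL5 and CXCL6 were 95.7% identical and CXCL1 and CXCL3 89.9%, whereas CXCL6 and CXCL8 were 27.5% identical. The GENCODE gene starts of CXCL3, CXCL6, CXCL8 and CCL20 lie 118, 38, 50 and 8103 bases upstream of the RefSeq starts used here.

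As a check of the siRNA labels, the target MAP3K21 was read first, in normalized reads (reads divided by the authors' size factors). Control cells had 553, 670 and 674 with vehicle and 758, 856 and 772 with doxorubicin. MLK4-depleted cells had 103, 94.7 and 88.7 with vehicle and 113, 138 and 94.4 with doxorubicin, so the siRNA groups did not overlap. The mean level in siMLK4 cells was 15.1% of that in siNT cells with vehicle and 14.5% with doxorubicin. A gene was called when limma's moderated test gave a Benjamini-Hochberg adjusted p under 0.01 over all 17013 genes and an absolute log2 fold change over 0.75. Fold changes on this scale are differences of the deposited variance-stabilized log2 values, which understate the change of genes with few reads. Ratios of mean normalized reads are therefore given beside many of them. The study's methods describe transfection in triplicate, and nothing in the labels says that the 3 libraries of a group came from independent experiments, so p-values measure only the spread between these libraries. In bulk RNA, fewer expressing cells and less RNA per cell cannot be told apart.

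Doxorubicin raised 3 of the 9 chemokine genes in siNT cells (CXCL1, CXCL5 and CXCL8) and 5 in siMLK4 cells (CXCL1, CXCL3, CXCL5, CXCL8 and CXCL10), and lowered none in either by limma's test. The background was 12.1% of all genes called higher and 10.6% called lower in siNT cells, and 12.6% higher and 10.6% lower in siMLK4 cells. The median log2 fold change of the 6 ELR genes was 0.76 in siNT and 0.78 in siMLK4 cells, beside 0.0046 and 0.018 over all genes. MLK4 knock-down lowered 2 of the 9 with vehicle (CXCL1 and CXCL8, background 3.14% lower and 2.51% higher). With doxorubicin it lowered 3 (CXCL1, CXCL6 and CXCL8, background 2.93% lower) and raised 1 (CXCL10, background 2.66% higher). The difference between the 2 doxorubicin responses was called for CXCL10 alone among the 9, against a background of 0.0999% of all genes called higher and 0.176% called lower. These counts stand beside their background as a description, since the genes were chosen with results of these data known. CXCL10 reached the lowest level kept in the table only in the doxorubicin groups. Its drug calls in these counts, the difference of responses included, are thus a description of a gene kept through them. The vehicle and drug groups enter more than 1 of these comparisons, so their fold changes are set side by side and are not independent.

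**Figure D1:**
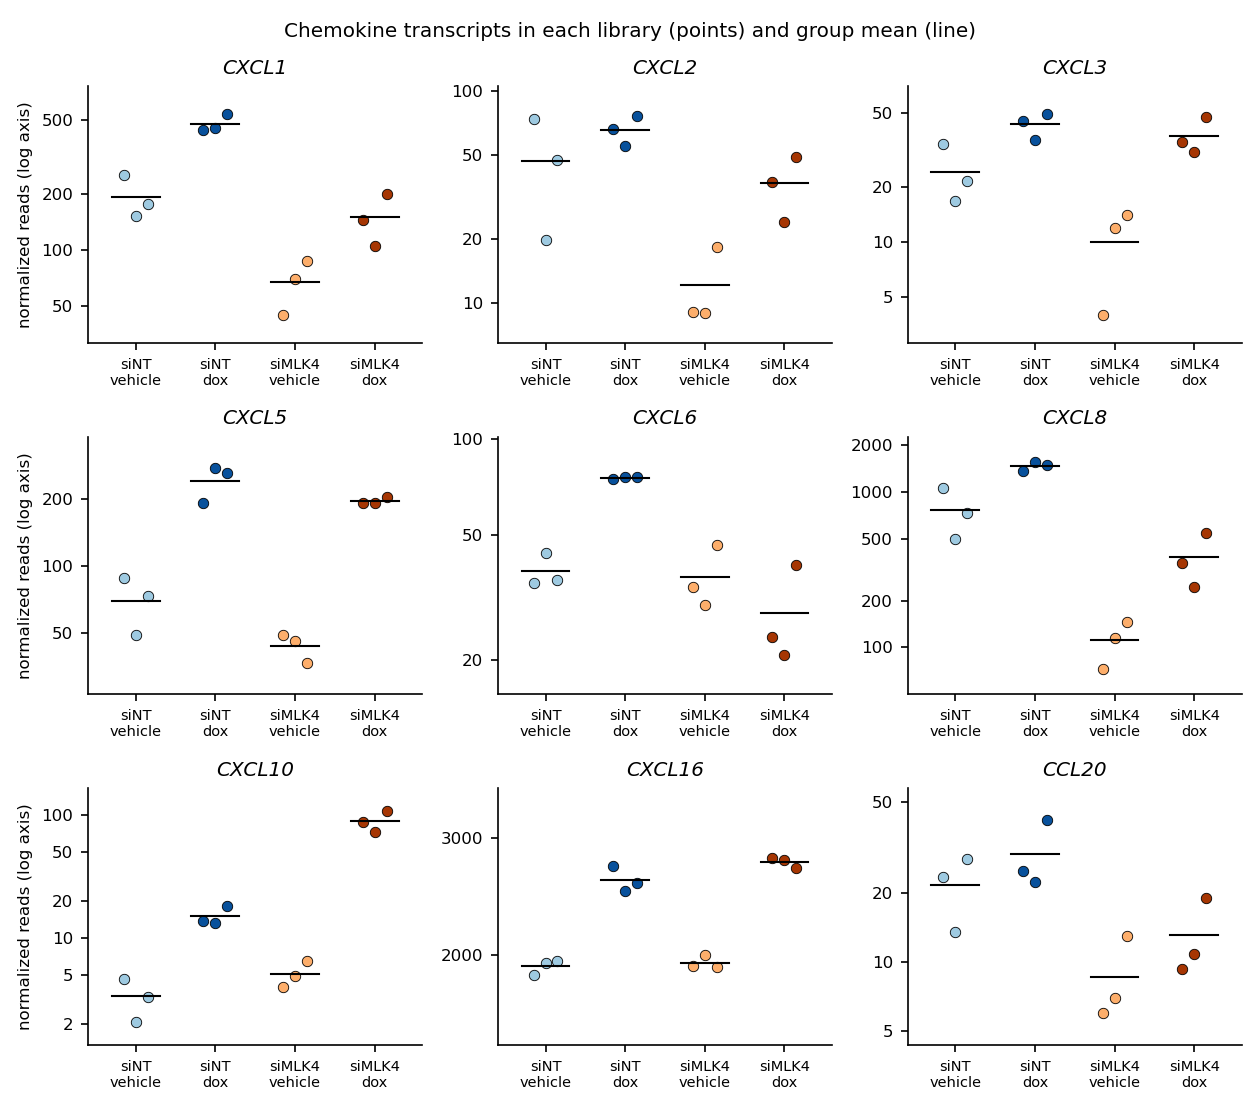
Normalized reads of the 9 chemokine genes in each of the 12 libraries (points, log axis, library 1 to 3 from left to right in each group) with the group mean (line). The siMLK4 points of CXCL8 and CXCL1 lie below the siNT points of the same treatment, those of CXCL16 do not, and CXCL10 is highest in siMLK4 cells with doxorubicin.

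CXCL8, the ligand of CXCR1 and CXCR2 once named interleukin 8, was the most abundant ELR transcript in every group per length of transcript. Its gene is at chr4:73740519-73743716 (GRCh38, + strand). CXCL8 had 1058, 493 and 729 normalized reads in siNT vehicle libraries and 1359, 1541 and 1492 in siNT doxorubicin libraries. In siMLK4 cells it had 73.1, 116 and 145 with vehicle and 347, 243 and 544 with doxorubicin. The siNT and siMLK4 libraries did not overlap under either treatment, but the highest siMLK4 doxorubicin library lay above the lowest siNT vehicle library. CXCL8 rose with doxorubicin in both cell groups, 1.93-fold in siNT cells (log2 fold change 0.96, SE 0.26, adjusted p = 0.00634, limma) and 3.40-fold in siMLK4 cells (log2 fold change 1.39, adjusted p = 0.000453). The mean level in siMLK4 cells was 14.6% of that in siNT cells with vehicle (log2 fold change −2.31, adjusted p = 3.08e-05) and 25.8% with doxorubicin (log2 fold change −1.88, adjusted p = 0.000196). The difference between the 2 drug responses was 0.43 (95% interval −0.37 to 1.22, adjusted p = 0.668). When each library was left out in turn, the call in siNT cells was made 7 of 12 times, and the fold change fell to 0.70 (adjusted p = 0.0395) without siNT vehicle replicate 2, the lowest of its group. It was also lost without siNT vehicle replicate 3 or any 1 of the siNT doxorubicin libraries (adjusted p = 0.0145 to 0.023).

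CXCL1, a ligand of CXCR2 first known as a growth-regulated oncogene product, moved with CXCL8 in direction. It lies 129 kb from the start of CXCL8, at chr4:73869393-73871308 (+ strand). CXCL1 had 251, 152 and 177 normalized reads in siNT vehicle libraries and 442, 452 and 534 in siNT doxorubicin libraries. In siMLK4 cells it had 45.1, 69.8 and 87.6 with vehicle and 146, 105 and 200 with doxorubicin. Groups that differ in 1 factor did not overlap. Doxorubicin raised CXCL1 2.46-fold in siNT cells (log2 fold change 1.13, SE 0.20, adjusted p = 0.000222) and 2.23-fold in siMLK4 cells (0.79, adjusted p = 0.00316). The siMLK4 level was 34.9% of the siNT level with vehicle (−1.09, adjusted p = 0.00116) and 31.5% with doxorubicin (−1.42, adjusted p = 0.000169). The drug responses differed by −0.34 (95% interval −0.93 to 0.25, adjusted p = 0.645). The CXCL1 call with doxorubicin in siMLK4 cells was lost without siMLK4 vehicle replicate 1 (0.63, adjusted p = 0.0169), siMLK4 doxorubicin replicate 1 (0.79, adjusted p = 0.0114) or siMLK4 doxorubicin replicate 3 (0.62, adjusted p = 0.0177). The call of the vehicle difference was made in all 12 such fits but not with only the vehicle groups in the fit (adjusted p = 0.0141).

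CXCL2 and CXCL3, close relatives of CXCL1 with the same receptor CXCR2, were low and only partly called. CXCL2 had 74.0, 19.7 and 47.2 normalized reads in siNT vehicle, 66.4, 55.0 and 76.0 in siNT doxorubicin, 9.02, 8.97 and 18.4 in siMLK4 vehicle and 37.3, 24.2 and 49.0 in siMLK4 doxorubicin libraries. The siNT vehicle libraries of CXCL2 overlapped the siNT doxorubicin libraries, the siMLK4 libraries lay below the siNT libraries of the same treatment, and no comparison of CXCL2 was called. The siMLK4 level was 25.8% of the siNT level with vehicle (−0.79, SE 0.21, adjusted p = 0.0121) and 56.0% with doxorubicin (−0.48, adjusted p = 0.104). The vehicle difference was called on log2(normalized reads + 1) (−1.76, adjusted p = 0.00713), with the replicate number as a block (adjusted p = 0.00458) and without siNT vehicle replicate 2, the lowest of its group (−1.05, adjusted p = 0.00149). The ratio of the doxorubicin to the vehicle mean of CXCL2 was 1.40 in siNT cells (0.34, adjusted p = 0.168, and 0.082 to 0.57 without each library in turn). It was 3.04 in MLK4-depleted cells (0.65, adjusted p = 0.0148), where the change was called on log2(normalized reads + 1) (1.55, adjusted p = 0.00602). CXCL3 had 34.1, 16.6 and 21.3 normalized reads in siNT vehicle, 45.2, 35.6 and 49.7 in siNT doxorubicin, 4.01, 11.96 and 14.1 in siMLK4 vehicle and 34.8, 30.9 and 48.1 in siMLK4 doxorubicin libraries. It rose 3.79-fold with doxorubicin in siMLK4 cells (0.77, adjusted p = 0.000609), a call lost without siMLK4 vehicle replicate 1 or siMLK4 doxorubicin replicate 3 by the fold threshold (0.63 and 0.68). In siNT cells the change of CXCL3 was 1.81-fold without overlap of the libraries (0.42, adjusted p = 0.0277). The drug responses of CXCL3 differed by 0.35 (95% interval −0.11 to 0.81). With vehicle the siMLK4 libraries of CXCL3 lay below the siNT libraries, at 41.7% of the siNT mean. This difference was not called (−0.46, 95% interval −0.78 to −0.13, adjusted p = 0.039). With doxorubicin the siNT and siMLK4 libraries of CXCL3 overlapped, with a difference of −0.11 (95% interval −0.43 to 0.22, adjusted p = 0.649).

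CXCL5 and CXCL6, neighbours in sequence that both act on CXCR2, differed from each other. CXCL5 (chr4:73995642-73998677, − strand) had 88.1, 48.8 and 73.0 normalized reads in siNT vehicle and 191, 275 and 261 in siNT doxorubicin libraries. It had 49.1, 45.8 and 36.8 in siMLK4 vehicle and 193, 193 and 205 in siMLK4 doxorubicin libraries, and the drug groups lay above the vehicle groups throughout. CXCL5 rose 3.46-fold in siNT cells (1.32, SE 0.15, adjusted p = 5.27e-06) and 4.48-fold in siMLK4 cells (1.47, adjusted p = 2.26e-06), both called in all 12 fits that left out 1 library. Its siMLK4 and siNT libraries overlapped under both treatments. The siMLK4 level was 62.8% of the siNT level with vehicle (−0.38, 95% interval −0.69 to −0.061, adjusted p = 0.0751). With doxorubicin it was 81.2% (−0.23, 95% interval −0.55 to 0.083, adjusted p = 0.272). CXCL6 (chr4:73836640-73849064, + strand), which lies between CXCL8 and CXCL1, had 35.2, 43.6 and 35.9 normalized reads in siNT vehicle and 74.8, 76.4 and 76.0 in siNT doxorubicin libraries. It had 34.1, 29.9 and 46.5 in siMLK4 vehicle and 23.7, 20.9 and 39.9 in siMLK4 doxorubicin libraries. The siNT doxorubicin group thus lay above the other groups, which overlapped each other. The change of CXCL6 in siNT cells was 1.98-fold (0.57, adjusted p = 0.00183), under the fold threshold, but it was called on log2(normalized reads + 1) (0.97, adjusted p = 0.00466) and by limma-voom (0.97, adjusted p = 0.00289). The change in siMLK4 cells was 0.77-fold (−0.19, adjusted p = 0.214). With doxorubicin CXCL6 was lower in siMLK4 cells, at 37.2% of the siNT level (−0.80, SE 0.13, adjusted p = 0.000568), a call lost without siMLK4 doxorubicin replicate 2 (−0.71). With vehicle the difference was −0.03 (95% interval −0.31 to 0.24), and its sign turned under scaling by library totals (0.036). The drug responses of CXCL6 differed by −0.76 (SE 0.18, 95% interval −1.15 to −0.37), with an adjusted p of 0.0587.

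**Figure D2:**
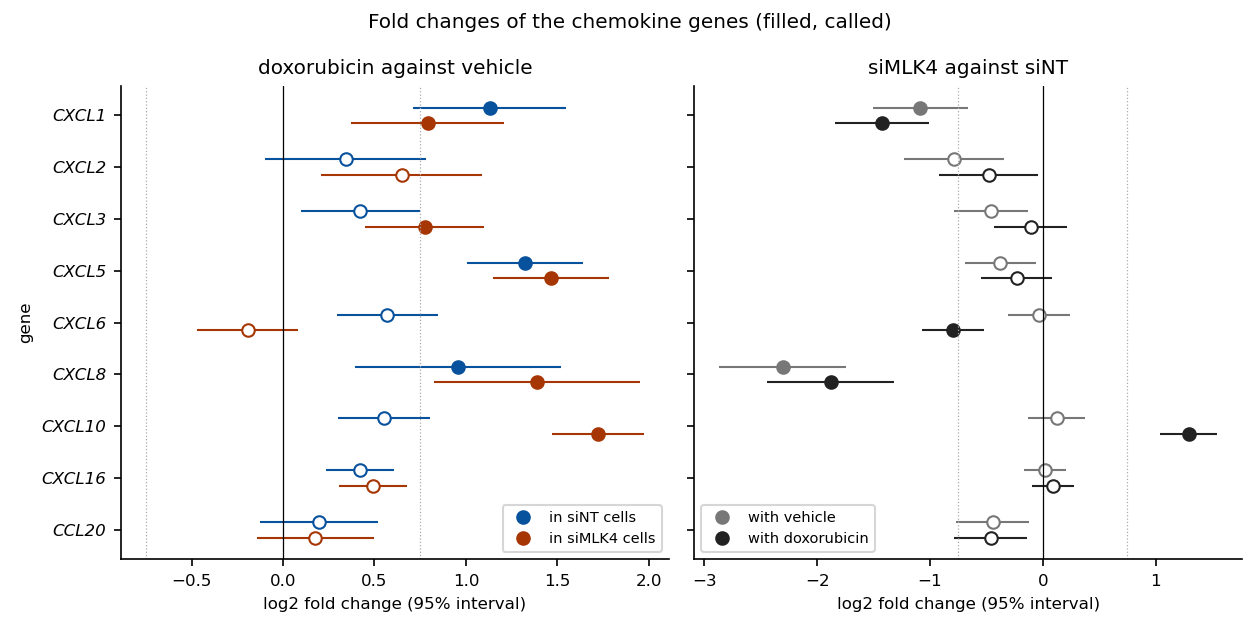
Log2 fold change of each chemokine gene (x axis) with its 95% interval for doxorubicin against vehicle (left) and siMLK4 against siNT (right). Filled points were called, and dotted lines mark the fold threshold of 0.75. CXCL1 and CXCL8 lie left of zero with both treatments on the right, where only CXCL10 is called above zero.

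Per length of transcript the 6 ELR genes together had 1015, 511 and 710 normalized reads per kb in siNT vehicle libraries and 1433, 1569 and 1635 in siNT doxorubicin libraries. The siMLK4 libraries had 137, 187 and 238 with vehicle and 496, 380 and 700 with doxorubicin. The siNT doxorubicin libraries were the highest and the siMLK4 vehicle libraries the lowest, while siMLK4 doxorubicin and siNT vehicle libraries overlapped. CXCL8 made up 61.6% ± 2.47 (SD, n = 3) of this sum in siNT vehicle, 57.7% ± 2.12 in siNT doxorubicin, 35.7% ± 2.82 in siMLK4 vehicle and 42.9% ± 4.25 in siMLK4 doxorubicin cells. The share of CXCL5 was 3.90% ± 0.33, 6.40% ± 0.87, 10.4% ± 4.19 and 16.3% ± 4.40 in the same order. CXCL1 held 22.5% to 30.4% in the group means. The share of CXCL8 was thus lower in every siMLK4 library than in every siNT library, and no test was made on this sum over chosen genes.

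**Figure D3:**
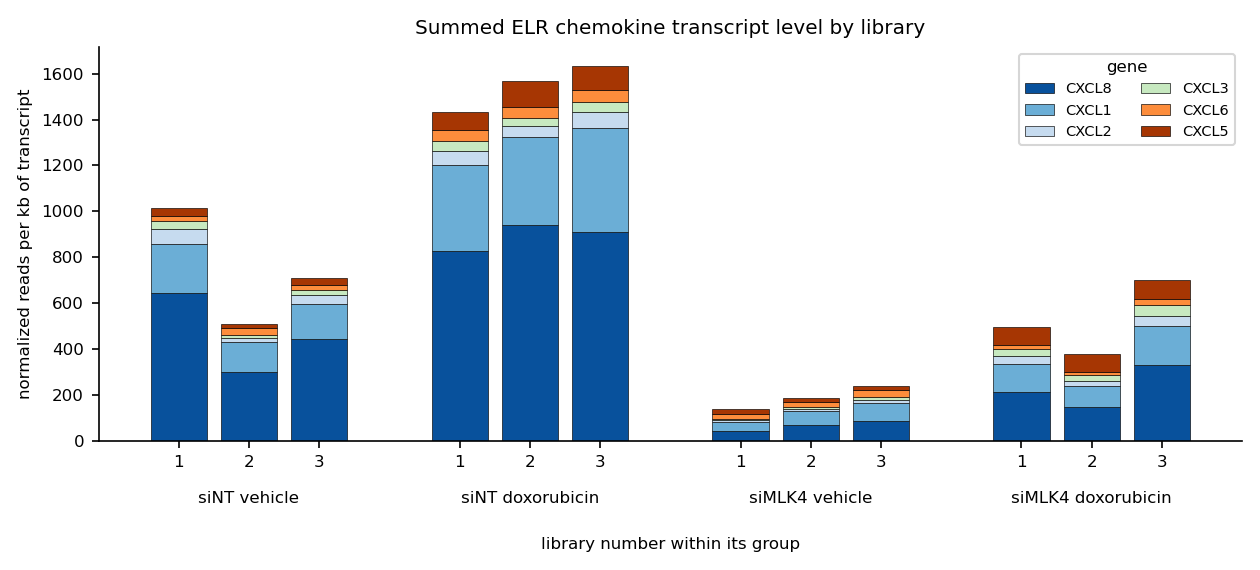
Normalized reads per kb of transcript (y axis) of the 6 ELR genes, stacked by gene, in libraries 1 to 3 of each group (x axis). The stacks reach 1635 in siNT doxorubicin and 238 in siMLK4 vehicle cells, and CXCL8 is the largest layer in every library.

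Libraries of a group differed from each other in a shared way. In siMLK4 cells, replicate 3 was the highest of its group for 7 of the 9 genes with vehicle and for 8 of 9 with doxorubicin. Replicate 2 of siNT vehicle was the lowest of its group for 7 of 9. After subtracting group means, CXCL1 correlated with CXCL8 at r = 0.955, with CXCL3 at 0.927 and with CXCL10 at 0.929 over the 12 libraries, whereas CXCL5 and CXCL6 had −0.246. These correlations are descriptions, since the libraries share their scaling and the group means were removed. Over the 12 libraries, and among 11057 genes with a mean of at least 100 normalized reads, the 5 genes most like CXCL8 by Pearson's r on the deposited scale were DYNC1LI1 (0.978), MAFF (0.975), DUSP5 (0.974), CXCL1 (0.970) and ZNF165 (0.966). For CXCL1 the first 4 were TOP1 (0.979), RGS16 (0.976), SNRNP27 (0.972) and CXCL8 (0.970). For CXCL6 they were CES2 (0.940), GAS6-DT (0.926), KYNU (0.924), TM4SF1 (0.912) and SRPX2 (0.899). With Spearman's rank correlation 1 of the 5 names stayed for each of the 3 genes, so the ranking beyond these values is loose.

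Chromosome 4 neighbours of the cluster were read beside it. Between RASSF6 and BTC, GENCODE 44 annotates 32 genes, of which 16 are protein-coding, and 12 had values, all protein-coding. The platelet chemokine genes PF4, PF4V1 and PPBP, which lie among the ELR genes, were not analysed here. The order along the + strand is CXCL8, CXCL6, CXCL1, CXCL5, CXCL3 and CXCL2, over 359 kb. With vehicle, the genes called lower upon MLK4 knock-down, CXCL8 and CXCL1, stood on both sides of CXCL6, which had −0.03. With doxorubicin, the first 3 genes in this order were called lower and the last 3 were not called. Outside the ELR genes, EREG and AREG, which encode the EGFR ligands epiregulin and amphiregulin, were lower in siMLK4 cells with vehicle (log2 fold changes −2.14 and −2.58, adjusted p = 5.98e-06 and 0.000191) and with doxorubicin (−1.06 and −1.60, adjusted p = 0.00164 and 0.00573). RASSF6, a RAS-association domain gene on the other side, was lower with doxorubicin (−1.09, adjusted p = 0.000388). MTHFD2L, EPGN and BTC were not called between siRNA groups, with differences from −0.60 to 0.15. Upon doxorubicin treatment of siNT cells, AREG fell by 1.33 on the log2 scale (adjusted p = 0.0065) and EREG had −0.71 (adjusted p = 0.00753), under the fold threshold. In siMLK4 cells they had −0.34 (adjusted p = 0.439) and 0.36 (adjusted p = 0.134). RASSF6 was called lower with doxorubicin in siNT (−0.77, adjusted p = 0.0014) and siMLK4 cells (−1.40, adjusted p = 9.47e-06). EPGN was called lower in siMLK4 cells (−0.76, adjusted p = 0.000147). BTC, which reached the lowest level kept in the table only with doxorubicin, had 0.72 and 0.66, under the fold threshold. MTHFD2L had −0.10 in siNT and −0.59 in siMLK4 cells.

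**Figure D4:**
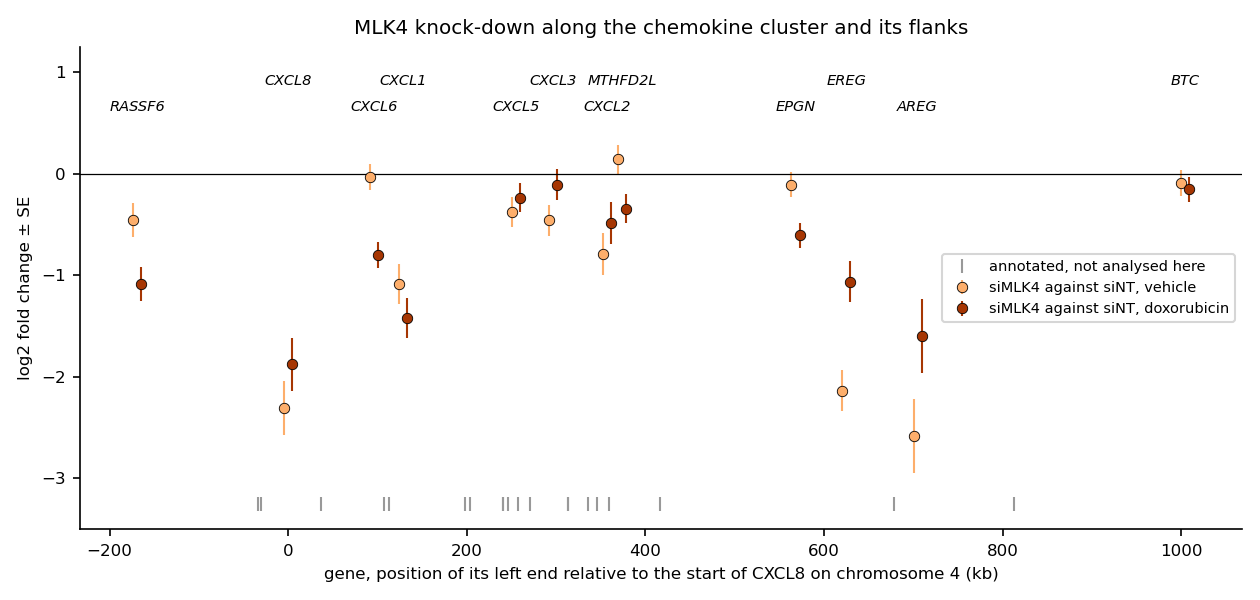
Log2 fold change ± SE of siMLK4 against siNT (y axis) for the 12 measured genes from RASSF6 to BTC, by distance of their left end from the start of CXCL8 in kb (x axis), and ticks for annotated genes not analysed here. CXCL8 (−2.31 with vehicle) is followed by CXCL6 (−0.03) and CXCL1 (−1.09), and the lowest point is AREG (−2.58).

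CXCL10 was higher in siMLK4 than in siNT cells with doxorubicin, where CXCL8 was lower. It lies apart from the ELR genes at chr4:76021118-76023497 (− strand). It had 4.70, 2.08 and 3.37 normalized reads in siNT vehicle, 13.8, 13.2 and 18.3 in siNT doxorubicin, 4.01, 4.98 and 6.49 in siMLK4 vehicle and 87.3, 72.5 and 109 in siMLK4 doxorubicin libraries. All 3 siMLK4 doxorubicin libraries lay above all others, and the vehicle groups overlapped. The sums behind these values were 9, 46, 15 and 310 reads. CXCL10 reached the lowest level kept in the table only in the doxorubicin groups, so its drug responses and their difference are a description. The ratio of doxorubicin to vehicle reads was 4.53 in siNT cells (95% counting interval 2.19 to 10.5, log2 fold change 0.55, adjusted p = 0.00117, under the fold threshold) and 17.4 in siMLK4 cells (10.4 to 31.4, log2 fold change 1.72, adjusted p = 1.03e-07). These intervals cover counting error only. The change in siNT cells was called on log2(normalized reads + 1) (1.91, adjusted p = 0.000163) and by limma-voom (2.04, adjusted p = 0.00153). With doxorubicin, CXCL10 was 5.93-fold higher in siMLK4 than in siNT cells (1.29, SE 0.12, adjusted p = 6.77e-06), and with vehicle the difference was 0.12 (95% interval −0.13 to 0.37). The difference between the drug responses was 1.17 (SE 0.17, 95% interval 0.82 to 1.53, adjusted p = 0.00474, limma). It was called in 4 of the 12 fits that left out 1 library. Its adjusted p was 0.0101 to 0.0219 in the other 8, in which the size stayed between 1.12 and 1.22. On log2(normalized reads + 1) the difference was 1.97 with an adjusted p of 0.0543, and by limma-voom on the recovered reads 1.95 with 0.13.

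Other interferon-stimulated genes were read beside CXCL10. Of 15 such genes, all measured, 0 were called by limma for the difference between drug responses, a count near the background of 0.0999% of all genes higher and 0.176% lower. Their median difference was −0.23 beside 0.012 over all genes. Upon doxorubicin treatment in siMLK4 cells, 4 of 15 rose (IFIT2, IFIT3, IRF7 and IFI6) and 5 fell (IFIT1, OAS1, OAS2, IFI44 and IFI44L), beside 12.6% and 10.6% of all genes. In siNT cells 3 rose (IFIT2, IFIT3 and IFI6) and 3 fell (OAS1, OAS2 and IFI44), beside 12.1% and 10.6%. MLK4 knock-down raised 4 with vehicle (IFIT1, IFIT2, IFIT3 and IFI6, beside 2.51% of all genes), led by the translation inhibitor IFIT1 at 2.07 (adjusted p = 5.74e-07). With doxorubicin it raised IFIT1 alone of the 15 (1.45, adjusted p = 1.2e-05), beside 2.66% of all genes. IRF1, a factor that acts at interferon-type sequences, rose with the drug in both groups (1.30 in siNT and 1.24 in siMLK4 cells) and differed by 0.17 between them with doxorubicin (adjusted p = 0.366). CXCL9 and CXCL11, the other CXCR3 ligands beside CXCL10 on the chromosome, were not analysed here, nor was ART3. The neighbours NUP54 and SDAD1 were not called in any of these comparisons.

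**Figure D5:**
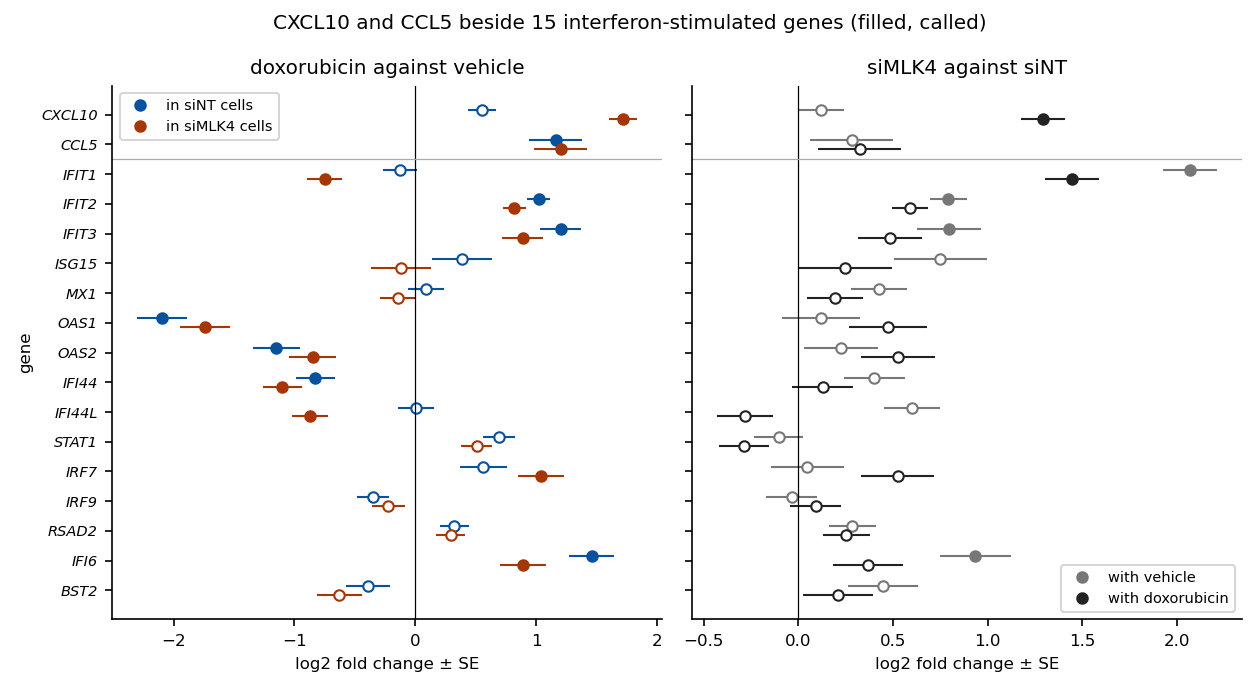
Log2 fold change ± SE (x axis) of CXCL10, CCL5 and 15 interferon-stimulated genes for doxorubicin against vehicle (left) and siMLK4 against siNT (right), filled where called. CXCL10 with doxorubicin (1.29) and IFIT1 with both treatments (2.07 and 1.45) are the highest points on the right.

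CXCL16, the CXCR6 ligand at chr17:4733533-4739928 (− strand), was abundant and varied little within groups. It had 1866, 1947 and 1960 normalized reads in siNT vehicle, 2721, 2493 and 2564 in siNT doxorubicin, 1926, 1996 and 1917 in siMLK4 vehicle and 2797, 2781 and 2706 in siMLK4 doxorubicin libraries. The drug libraries lay above the vehicle libraries in both cell groups, but the changes of 1.35-fold (0.42, adjusted p = 0.000919) and 1.42-fold (0.49, adjusted p = 0.000251) were under the fold threshold. The siRNA groups overlapped, with differences of 0.02 with vehicle (95% interval −0.17 to 0.20) and 0.09 with doxorubicin (95% interval −0.096 to 0.28), intervals that leave out changes as large as the threshold. Per length it stood at 828 ± 21.9 reads per kb in siNT vehicle cells, above CXCL8 at 463 ± 173 (SD, n = 3). With doxorubicin in siNT cells CXCL16 was again above CXCL8, at 1116 ± 50.1 and 892 ± 57.3.

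CCL20, the CCR6 ligand at chr2:227805739-227817564 (+ strand), was low. It had 23.5, 13.5 and 28.1 normalized reads in siNT vehicle, 24.9, 22.4 and 41.6 in siNT doxorubicin, 6.01, 6.98 and 13.0 in siMLK4 vehicle and 9.33, 10.8 and 19.1 in siMLK4 doxorubicin libraries. The siMLK4 libraries lay below the siNT libraries under both treatments, at 39.9% and 44.1% of the siNT means. The differences of −0.44 (95% interval −0.77 to −0.12, adjusted p = 0.043) and −0.46 (95% interval −0.78 to −0.14, adjusted p = 0.0371) did not pass the thresholds. Vehicle and drug libraries of CCL20 overlapped in both cell groups.

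Receptors for these ligands were sparse. Of 11 chemokine receptor genes 4 were measured (CXCR2, CXCR4, ACKR2 and ACKR3), and CXCR1, CXCR3, CXCR6, CCR6, CCR7, ACKR1 and ACKR4 were not analysed here. CXCR2, the common receptor of the ELR chemokines, had 0, 10.4 and 13.5 normalized reads in siNT vehicle, 0, 1.02 and 0 in siNT doxorubicin, 16.0, 13.0 and 13.0 in siMLK4 vehicle and 5.09, 6.67 and 3.63 in siMLK4 doxorubicin libraries. By its group means it reached the lowest level kept in the table only in siMLK4 vehicle cells, and it was not called in any comparison. CXCR4, the receptor of CXCL12, had 1.17, 1.04 and 0 normalized reads in siNT vehicle, 92.3, 78.4 and 48.7 in siNT doxorubicin, 1.00, 1.99 and 0 in siMLK4 vehicle and 160, 165 and 56.3 in siMLK4 doxorubicin libraries. The drug libraries lay above the vehicle libraries, which held sums of 2 and 3 reads, with a ratio of 99.7 (95% counting interval 27.3 to 829) in siNT and 126 (42.8 to 613) in siMLK4 cells. CXCR4 reached the lowest level kept in the table only in the doxorubicin groups, so these values are a description. ACKR3, a scavenging receptor of CXCL12, fell to 13.8% in siNT and 11.4% in siMLK4 cells upon doxorubicin treatment, and was 2.11-fold higher in siMLK4 cells with vehicle (0.95, adjusted p = 0.000963). CXCL12 itself was not analysed here.

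Of 28 other chemokine genes 4 were measured (CCL5, CCL22, CCL26 and CCL28). CCL5, a T cell attractant, rose 5.49-fold in siNT cells (1.16, adjusted p = 0.000475) and 4.86-fold in siMLK4 cells (1.20, adjusted p = 0.000346) upon doxorubicin treatment. Unlike CXCL10, CCL5 had drug responses that differed by 0.04 (adjusted p = 0.977). CCL22, CCL26 and CCL28 were not called in any comparison. Of the chemokine processing genes 5 of 7 were measured. MMP1, a collagenase, was lower in siMLK4 cells with vehicle (−3.21, adjusted p = 1.33e-07) and with doxorubicin (−2.12, adjusted p = 4.22e-06), and rose with doxorubicin in siMLK4 cells (1.80, adjusted p = 2.4e-06). It was 1 of 5 in each case, beside 3.14%, 2.93% and 12.6% of all genes. ADAM10, ADAM17, DPP4 and CTSS were not called in any comparison, and MMP3 and MMP9 were not analysed here.

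Transcripts of 24 transcription factors and inhibitors of NF-κB signalling were all measured. MLK4 knock-down lowered 5 with vehicle (TNFAIP3, JUN, FOS, FOSL1 and EGR1) and 2 with doxorubicin (TNFAIP3 and FOSL1), beside 3.14% and 2.93% of all genes called lower, and raised none of the 24 under either treatment by limma's test. FOSL1, an AP-1 subunit, had −2.12 with vehicle (adjusted p = 8.41e-07) and −1.45 with doxorubicin (adjusted p = 2.73e-05). TNFAIP3, the NF-κB target that encodes the inhibitor A20, had −1.02 and −0.89 (adjusted p = 0.000529 and 0.00136). The NF-κB subunit genes NFKB1, NFKB2, RELA, RELB and REL and the inhibitor gene NFKBIA were not called between siRNA groups. Doxorubicin raised JUN, FOS, ATF3 and IRF1 in both cell groups, CEBPA in siNT and RELB and EGR1 in siMLK4 cells. This makes 5 and 6 of 24, beside 12.1% and 12.6% of all genes called higher. The drug lowered FOSL1 in siNT cells, 1 of 24 beside 10.6% of all genes called lower. The drug response of EGR1, an immediate early factor, was larger in siMLK4 cells by 1.10 (adjusted p = 0.00742), the only called difference in the list, beside 0.0999% of all genes called higher. Without siMLK4 doxorubicin replicate 1 this call was lost, as 0 of all genes were then called for this difference by limma. Its level nevertheless stayed lower in siMLK4 cells with doxorubicin (−0.70, adjusted p = 0.000978, under the fold threshold).

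Inflammatory cytokines that accompany ELR chemokines were measured for 10 of 14 genes. Doxorubicin raised IL6 and IL24 and lowered IL18 and CSF2 in siNT cells, 2 of 10 each, beside 12.1% and 10.6% of all genes. In siMLK4 cells the drug raised IL6 and lowered IL18, 1 of 10 each, beside 12.6% and 10.6% of all genes. MLK4 knock-down lowered 3 with vehicle (IL1A, IL24 and CSF2) and 6 with doxorubicin (IL1A, IL1B, IL6, IL24, LIF and CSF2), beside 3.14% and 2.93% of all genes called lower, and raised none of the 10 by limma's test. The median difference was −0.35 with vehicle and −0.93 with doxorubicin, beside 0.012 and 0.023 over all genes. IL24 and CSF2 reached the lowest level kept (10.7 normalized reads) only in the siNT groups. With vehicle and doxorubicin, IL24 had means of 78.42 and 359.5 in siNT and 4.765 and 9.786 in siMLK4 cells. CSF2 had 73.96 and 24.39 in siNT and 9.456 and 4.003 in siMLK4 cells. Their knock-down calls are therefore a description, and they enter the counts and medians above. IL6, a cytokine often secreted together with CXCL8, had 4.70, 2.08 and 1.12 normalized reads in siNT vehicle, 468, 483 and 551 in siNT doxorubicin, 2.00, 0 and 3.24 in siMLK4 vehicle and 92.4, 65.0 and 172 in siMLK4 doxorubicin libraries. IL6 reached the lowest level kept in the table only in the doxorubicin groups. Its drug calls, which enter the counts above in both cell groups, are therefore a description. Like CXCL8, IL6 was highest with doxorubicin in siNT cells, at −1.85 in siMLK4 against siNT (adjusted p = 3.06e-05). IL1A, a cytokine that induces CXCL8, had −2.07 and −1.55 (adjusted p = 7.87e-06 and 0.000104).

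Transcripts with AU-rich elements are short-lived, and ELR chemokine mRNAs are known examples. The element core ATTTA occurred 11 times in the 3′UTR of CXCL5 (1995 bases), 10 times in CXCL2 (716 bases), 9 in CXCL8 (1252 bases), 7 in CXCL3 and 6 each in CXCL1 and CXCL6. CCL20 held 3, and CXCL10 and CXCL16 held 1 each, beside a median of 2 over genes. Of the measured genes with a 3′UTR, 12.9% held at least as many as CXCL5, 14.9% as CXCL2 and 17.4% as CXCL8. The share was 23.8% for CXCL3 and 28.0% for CXCL1 and CXCL6. These counts were not scaled to the length of the 3′UTR. Transcript stability was not measured. Of 11 stability factors, all measured, HNRNPD, which encodes the AU-binding protein AUF1, fell with doxorubicin in both cell groups (−1.21 in siNT and −1.38 in siMLK4 cells), and 1 of 11 is near the 10.6% of all genes called lower. ZFP36L1, a decay factor, was higher in siMLK4 cells with doxorubicin (0.76, adjusted p = 0.00624), 1 of 11 beside 2.66% of all genes, and no other was called between siRNA groups.

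Shared sequence could move reads between these paralogs. Of the 50-base stretches of their transcripts, 13.4% of CXCL2, 6.01% of CXCL3, 4.57% of CXCL1 and 2.31% of CXCL6 also occur in another gene, which is CXCL3 or CXCL1 for CXCL2 and the pseudogene PPBPP1 for CXCL6. CXCL8, CXCL10 and CCL20 shared none. How reads from these stretches were assigned was not tested, and values of CXCL2 and CXCL3 are uncertain for this reason. The siRNAs were also read against the chemokine 3′UTRs. Matches to the seeds (bases 2 to 8) of siRNAs 1 and 4 stood in CXCL2, a match to that of siRNA 1 in CXCL5 and a match to that of siRNA 4 in CXCL6. None of the 4 seeds matched the 3′UTR of CXCL1, CXCL3, CXCL8, CXCL10, CXCL16 or CCL20, while 44.3% of 13583 3′UTRs held at least 1. The part of seed matches in the CXCL6 difference was not tested.

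The cell type label was checked against its markers. All 10 epithelial and basal markers were measured, with KRT8 the most abundant over all libraries and KRT5 above it in siMLK4 vehicle cells, and 6 of them (KRT5, KRT6A, KRT14, KRT18, TP63 and EGFR) fell with doxorubicin in both cell groups, beside 10.6% of all genes in each. KRT6A and KRT14 were lower in siMLK4 cells with both treatments and KRT17 with doxorubicin, beside 3.14% of all genes with vehicle and 2.93% with doxorubicin. Triple-negative cells are defined by absent estrogen and progesterone receptors (ESR1 and PGR) and by HER2 (ERBB2) that is neither amplified nor overexpressed. Of these 3 receptor genes, PGR was at 0 in all vehicle libraries and had 7.26 to 18.5 normalized reads in doxorubicin libraries. Through the latter alone it reached the lowest level kept in the table. ESR1 had group means of 46.5 to 117 and fell with doxorubicin in siMLK4 cells, and ERBB2, the highest of the 3, of 1459 to 1893. Of 8 leukocyte markers 3 were measured, led by CSF1R in the vehicle groups and by CD14 in the doxorubicin groups, and their sums were 38.8 to 49.4 normalized reads in siNT vehicle, 61.1 to 75.03 in siNT doxorubicin, 58.1 to 77.8 in siMLK4 vehicle and 57.7 to 79.2 in siMLK4 doxorubicin libraries. PTPRC (CD45), the defining leukocyte marker, had at most 7.86 in vehicle and at most 21.2 in doxorubicin libraries and reached the lowest level kept in the table only in the doxorubicin groups. Of 6 fibroblast markers 3 were measured, led by COL1A1, which was higher in siMLK4 cells with vehicle (0.78, adjusted p = 0.000412), and their sums were 390 to 474, 282 to 306, 667 to 834 and 362 to 503 in the same order. LUM fell with doxorubicin in both cell groups, and COL1A2, COL3A1 and DCN were not analysed here. Of 4 endothelial markers only VWF was measured, with 13.5 to 67.1 normalized reads. The part of these transcripts in the chemokine values was not tested.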

How the data were processed

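Poly(A) mRNA of HCC1806 cells was sequenced in 12 libraries. The submitters' processing notes list Trimmomatic 0.39 for trimming, HISAT2 for mapping, HTSeq 0.6.0 for counting and DESeq2 1.26.0, and name hg19, whereas the methods of the study name GRCh38. The authors deposited variance-stabilized log2 values of 17013 genes. Inverting that transformation returned whole reads within 0.05 for 100% of values, with size factors from 0.852 to 1.20. Normalized reads are these reads divided by the size factors. No column of values was left unmapped. Columns were assigned by sample title, and the labels of siMLK4 doxorubicin replicates 2 and 3 end in the same sequencer number.

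All 17013 genes were fitted with limma 3.58.1 (R 4.3.3, lmFit, eBayes with a variance trend) on the deposited values, with 4 group means over 12 libraries and Benjamini-Hochberg adjustment. The code was tested on simulated data. Replicates differed by more than counting noise (chi-square per degree of freedom 7.01 to 63.7). Coordinates and lengths are of GENCODE 44 (GRCh38), matched by Ensembl ID.

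Equally numbered libraries deviated together (r over 0.1 in all 3 pairs) for the doxorubicin response of siNT cells (0.460, 0.105 and 0.205) and for the knock-down with doxorubicin (0.190, 0.516 and 0.559), as read from the values alone. Alternatives were TMM or library-total scaling, log2(normalized reads + 1), limma-voom, at least 10 reads in every library, only the groups compared, a replicate block, no variance trend, other thresholds, Spearman's correlation and leaving out each library. Named are the siRNA target, the 9 genes, their chromosomal neighbours, and list members that passed a call, were absent or stood at the edge of their list. Members and lists were chosen with earlier results of these data known. 1 of the genes most like CXCL1 is not reported here.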

Additional observations from a re-analysis of the deposited data

Results flagged for a closer look

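The drug response of CXCL10 was called different between the siRNA groups, for a gene kept in the table only through its doxorubicin groups. It was larger in siMLK4 than in siNT cells by 1.17 on the deposited log2 scale (SE 0.17, adjusted p = 0.00474, limma over all 17013 genes), and all 3 siMLK4 doxorubicin libraries lay above all other libraries. The call was made in 4 of 12 fits that left out 1 library, and not on log2(normalized reads + 1) (1.97, adjusted p = 0.0543) or by limma-voom (1.95, adjusted p = 0.13). The vehicle groups behind it held sums of 9 and 15 reads. CXCL10 reached the lowest level kept in the table (10.7 normalized reads in the highest group) only in the doxorubicin groups, with means of 15.1 in siNT and 89.6 in siMLK4 cells. Its drug responses and their difference are therefore a description of a gene kept through these groups.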

How the results depend on the processing

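Of 916 values of single chemokine genes under alternatives, 863 kept their direction and their side of the threshold, 23 lost a call, 18 gained one and 12 changed sign, 0 of them for a called value. Without each library in turn, the chemokine genes called ranged from 2 to 3 (doxorubicin in siNT cells), 3 to 5 (in siMLK4 cells), 2 to 3 (knock-down with vehicle), 3 to 4 (with doxorubicin) and 0 to 1 (difference of responses). Over all genes, those called for the difference of responses ranged from 0 (without siMLK4 doxorubicin replicate 1) to 37, against 47 with every library. The lost fits have fewer samples.

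Chemokine genes called upon doxorubicin treatment numbered 5 by limma-voom and 7 at an adjusted p under 0.05 with no fold threshold in siNT cells (3 as reported). In siMLK4 cells they numbered 3 with at least 10 reads in every library, where only 5 genes were tested. For the knock-down with vehicle they were 1 with only the groups compared and 5 at the looser threshold. For the difference of responses they were 0 on log2(normalized reads + 1), by limma-voom and with at least 10 reads, where CXCL10 was not tested. On log2(normalized reads + 1), CXCL8 lost its call in siNT cells (1.01, adjusted p = 0.0114).

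All genes called for the knock-down with vehicle were 1613 on log2(normalized reads + 1), 1483 by limma-voom, 611 with only the groups compared and 4381 at the looser threshold (961 as reported), and with doxorubicin 1466 by limma-voom and 4219 at the looser threshold (950). The looser threshold gave 9745 in siNT cells (3859), 9858 in siMLK4 cells (3949) and 204 for the difference, for which limma-voom gave 29. The causes were not tested. Scaling by library totals gave a median over all genes of 0.18 (doxorubicin, siNT), 0.16 (doxorubicin, siMLK4) and 0.11 (knock-down, vehicle), from 0.0046, 0.018 and 0.012, and moved the calls to 2848 higher and 1094 lower, 2888 and 1275, and 632 and 346, from 2060 and 1799, 2147 and 1802, and 427 and 534. With doxorubicin the knock-down calls became 623 higher and 396 lower, from 452 and 498.

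Sign changes concerned CCL20 for the difference of responses (0.11 on log2(normalized reads + 1) and by limma-voom, −0.12 to 0.11 without each library), CXCL6 for the knock-down with vehicle (0.036 by library totals, −0.13 to 0.035 without each library) and CXCL16 for the same comparison (−0.0054 to 0.029 without each library). The replicate block changed 1 call, CXCL2 for the knock-down with vehicle (−0.79, adjusted p = 0.00458 with the block), a comparison in which equal numbers did not deviate together. It changed no other call of the 9 genes. CXCL10 and CXCL3 rest on few reads with vehicle, and their fold changes depend on the scale.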
